A study of Mus musculus with 18 samples.

Results

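A set of 36 genes of macrophages and other myeloid cells was followed through 18 RNA sequencing libraries of mouse uterus. The members were taken as the rows of the deposited expression table that carried a listed gene symbol. Of the 36 symbols, 34 were found among 25791 genes, and 33 of these reached at least 1 FPKM (fragments per length of transcript and per mapped fragments of the library) in at least 3 of the 18 libraries and were tested with 13898 genes in all. Marco did not reach that level. Spi1 and Pirb had no row of that name, but rows named Sfpi1 and Lilrb3, their older synonyms in RefSeq, were present and are given apart from the counts.

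All mice were 12 weeks old on a mixed 129Sv X C57BL/6 background, and each library came from a cross section of uterus. They were wild type (WT) or uterine-specific Tsc2-null (KO). TSC2 is the restraint on the growth kinase complex mTORC1. Both genotypes were studied with ovaries in place (intact), with ovaries removed at 4 weeks (ovx), or with ovaries removed at 4 weeks and a 0.5 mg pellet of 17β-estradiol, made to release over 90 days, worn for 8 weeks (E2). Each of the 6 groups had 3 libraries, numbered by their titles. The labels name neither the driver of the deletion nor the animal behind a library. The p-values below thus cover the spread between these samples alone, and that spread may be technical.

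Macrophages are phagocytes that enter tissue as monocytes or reside there from development, and in the uterus their number and state follow the ovarian hormones. They recognise microbes, dying cells and antibody-coated particles through pattern, scavenger, lectin and Fc receptors. Many of these receptors have no signaling tail and pair with the adaptors FCER1G or TYROBP, whose ITAM motifs are phosphorylated by Src-family kinases such as LYN and FGR. Downstream lie CARD9, the NADPH oxidase of phagocytes and the actin cytoskeleton. Several members are shared with neutrophils, which use the same oxidase, Fc receptors and kinases, and some with dendritic cells or lymphocytes.

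The myeloid transcription factor encoded by Spi1 binds purine-rich sites with a GAGGAA core, so this core was searched for on both strands in the 250 bases before each RefSeq start (build GRCm38.p6). It lay in 13 of the 25 members with a window (52%) and in 6986 of 27025 genes (25.9%). Counted over windows, since a gene can have several, it lay in 15 of 32 (46.9%) and in 7639 of 32851 (23.3%). The longer motif GAGGAAGT, which contains the core, lay in 2 of 25 members (8%), Fcgr4 and Pirb, and in 755 of 27025 genes (2.79%). A match of letters is a description, not a binding site. The stretches below are 120 bases each and end just before the start. They were chosen by outcome, because their genes were higher in KO E2 than in WT E2 uterus. The core also lay in this stretch of Aif1, Mrc1 and Clec7a, which were not called in that comparison, and of Pirb, none of them shown. Any link between the core and the levels was not tested. Capitals mark the core, here on the reverse strand (TTCCTC).
Fcgr3 (chr1:171059404-171059523, minus strand): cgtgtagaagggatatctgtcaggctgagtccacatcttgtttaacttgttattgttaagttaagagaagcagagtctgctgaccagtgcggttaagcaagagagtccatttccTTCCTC
Fcgr4 (chr1:171018806-171018925, plus strand): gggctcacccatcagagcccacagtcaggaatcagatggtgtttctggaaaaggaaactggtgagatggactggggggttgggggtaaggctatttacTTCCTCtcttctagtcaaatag
Fcgr1 (chr3:96293970-96294089, minus strand): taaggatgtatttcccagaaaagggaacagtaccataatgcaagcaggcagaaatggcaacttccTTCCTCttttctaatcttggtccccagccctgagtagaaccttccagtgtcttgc
Trem2 (chr17:48346281-48346400, plus strand): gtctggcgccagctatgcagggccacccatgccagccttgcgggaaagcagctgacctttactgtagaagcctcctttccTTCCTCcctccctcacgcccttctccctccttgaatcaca
Laptm5 (chr4:130913196-130913315, plus strand): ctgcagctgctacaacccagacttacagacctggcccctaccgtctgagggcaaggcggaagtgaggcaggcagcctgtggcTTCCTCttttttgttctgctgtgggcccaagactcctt

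The FPKM of a library added up to between 216032 and 591668. Read depth is unknown because the table holds no counts. Tsc2 itself ran from 2.04 to 3.49 FPKM in the 9 WT libraries and from 1.62 to 3.33 in the 9 KO libraries, with log2 differences of -0.21, -0.15 and -0.19 in the intact, ovx and E2 states, none past the threshold (adjusted p 0.425, 0.571 and 0.42). A cross section also holds cells outside the deletion, and which exons the values cover is not given. The uterine label was matched by Epcam (9.37 to 184 FPKM) and Acta2 (31.8 to 639 FPKM), markers of epithelium and smooth muscle. For the myeloid label, the pan-macrophage genes Csf1r and Emr1 were detected in all 18 libraries, at 0.137 to 57.3 and 0.164 to 30.2 FPKM, and Ptprc, the pan-leukocyte CD45, at 0.0633 to 12.4 FPKM. In bulk tissue, fewer cells of a type and less RNA per cell cannot be told apart. WT intact replicate 4 stood apart with Csf1r at 0.137, Ptprc at 0.0633 and Epcam at 184 FPKM. KO E2 replicate 2 differed from the other KO E2 libraries, with Epcam at 101 against 9.37 and 14.7 FPKM. By the steps of their lowest values, the libraries were clustered into 4 sets (called step sets 1 to 4 here, as the labels name no batches). The number 4 was fixed in the clustering, not found by it. Pairs within a set shared a median of 7.33% of their low-value ratios (3.56% to 19.6%). Pairs from different sets but alike in ovaries shared 2.91% (1.78% to 3.98%), which overlaps. Intact and ovariectomized libraries shared 1.47% (1.11% to 1.85%) and were never in the same set.

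Most members had their highest mean level in the E2-treated KO uterus. KO E2 had the highest group mean for 31 of 34 members, WT E2 for 2 (Cd14 and Lyn) and KO intact for 1 (Tlr4). All 3 KO E2 libraries lay above all 15 others for 25 members. The share of all genes for which this held was not computed, so the 25 are a description only. They include Cd86, Fcgr1, Msr1, Clec4n, Fgr, Card9 and Mefv, which reached the level for testing only through the KO E2 libraries. Without E2, 14 of 34 members stayed below 1 FPKM in all 12 intact and ovx libraries, and 19 did so in the 6 ovx libraries. Others were well expressed with ovaries in place, such as Laptm5 at 23.9 to 67.4 and Cd14 at 22.4 to 52 FPKM in WT intact. The highest single library was KO E2 replicate 3 for 22 members, KO E2 replicate 1 for 8, KO E2 replicate 2 for 1 and WT E2 replicate 5 for 3.

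**Figure D1:**
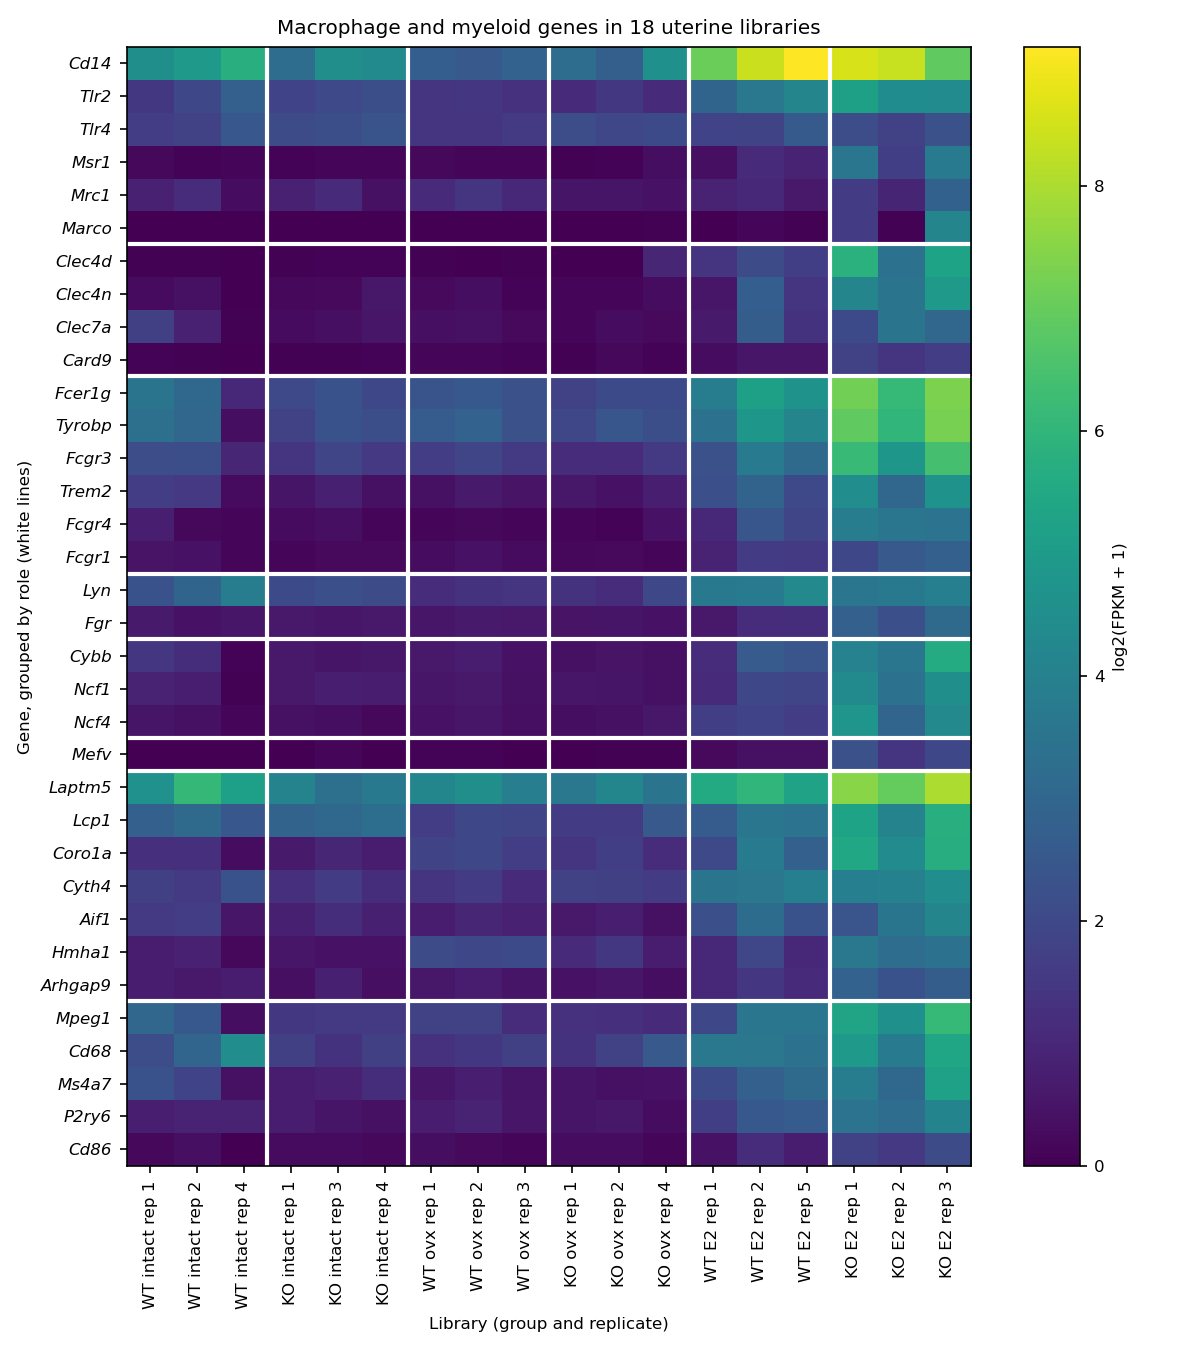
log2(FPKM + 1) of the 34 members (rows, in role groups separated by white lines, highest mean first) in the 18 libraries (columns, 3 per group, separated by white lines). The 3 KO E2 columns at the right are the brightest for most rows, while Cd14, Lyn and Tlr4 are at least as bright in WT E2 replicate 5, the highest library for these 3.

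Log2 differences below are of FPKM + 1 ± SE from one limma fit over the 18 libraries. This scale understates the fold of low genes. A gene is called higher or lower where its p, adjusted by Benjamini-Hochberg over all 13898 genes, was under 0.05. Comparisons that use the same libraries are not independent, and the KO E2 libraries enter the KO against WT, the E2 against ovx and the interaction comparisons alike. Members and marker lists were chosen with earlier results of these data known. Their counts beside the shares of all genes are thus a description and no independent support.

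Under E2, 23 of 33 members were higher in KO than in WT uterus and none was lower. Of all genes tested, 4.91% were called higher in this comparison, 3.58% lower and 8.49% in either direction. The median log2 difference was 1.66 over the members and -0.05 over all genes tested. Of the 33, 7 reached the level for testing only through the KO E2 libraries (Cd86, Fcgr1, Msr1, Clec4n, Fgr, Card9 and Mefv), so their excess there was a condition of being tested and their calls are no separate support. Of the other 26 members, 16 were higher. The same 7 enter the counts of the later comparisons, where the other 26 gave 25 higher in E2 against ovx in KO, 15 positive in the interaction with E2 and 5 higher in the mean of states. The 3 KO libraries lay above the 3 WT libraries without overlap for 26 members, which held for 10.4% of all genes tested. As ratios of mean FPKM, the members ran from 0.804 for Cd14 to 148 for Marco with a median of 4.13, and Ptprc had a ratio of 5.62, which 12 members exceeded. The 8 with the largest log2 differences were Clec4d, Fcgr3, Clec4n, Tyrobp, Ncf1, Cybb, Coro1a and, level with Ncf4, Fcer1g.

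Among the Fc receptors and their adaptors, all 6 members were higher in KO E2 than in WT E2, with a median log2 difference of 2.07. Fcer1g, the common ITAM chain, read 13.7, 35.9 and 24.4 FPKM in WT E2 replicates 1, 2 and 5 and 144.9, 69.3 and 159 in KO E2 replicates 1, 2 and 3. It read 4.21, 4.72 and 3.81 in WT ovx and 2.37, 3.17 and 3.13 in KO ovx. In the intact state it read 10.5, 7.24 and 1 FPKM in WT and 3.04, 3.9 and 2.99 in KO. The lowest KO E2 library was thus about double the highest WT E2 library, while in the intact state WT replicate 4 lay below every KO library and the other WT libraries above them. The log2 difference under E2 was 2.30 ± 0.50 (adjusted p = 0.0114). Tyrobp, the second ITAM adaptor, differed by 2.60 ± 0.60 (adjusted p = 0.0151), with 9.53 to 27.5 FPKM in WT E2 and 63.6 to 154.2 in KO E2. The activating IgG receptors Fcgr3, Fcgr4 and Fcgr1 differed by 2.73 ± 0.43, 1.85 ± 0.27 and 1.11 ± 0.21, and Trem2, a lipid-sensing receptor that signals through TYROBP, by 1.66 ± 0.40. Fcgr3 and Fcgr4 lie close together on chromosome 1 with the inhibitory receptor Fcgr2b, itself at 2.75 to 9.85 FPKM in WT E2 and 23.1 to 69.7 in KO E2, and how reads were shared between these similar genes is not given.

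The lectin group, receptors for fungal and other glycans, held the member with the largest tested difference. Clec4d read 1.59, 3.31 and 2.21 FPKM in WT E2 and 55.4, 9.88 and 38.2 in KO E2. Elsewhere it was nearly absent, at 0.0389, 0.0291 and 0 FPKM in WT intact, 0.0259, 0.0659 and 0.0573 in KO intact, 0.0306, 0.0132 and 0.049 in WT ovx, and 0.0173, 0.0222 and 0.973 in KO ovx. The one KO ovx library near 1 FPKM was replicate 4. The difference under E2 was 3.13 ± 0.43 (adjusted p = 0.000649). Clec4n (dectin-2) differed by 2.65 ± 0.41, but Clec7a (dectin-1) by 1.30 ± 0.47, which did not pass (adjusted p = 0.102). Clec7a was the one member with its highest library in KO E2 replicate 2, at 10.5 FPKM against 3.15 and 7.14 in replicates 1 and 3, and WT E2 replicate 2 read 5.53.
Card9, the adaptor downstream of these lectins, was low and reached 1 FPKM in the KO E2 libraries alone, through which it came to be tested. It read 0.23, 0.456 and 0.455 FPKM in WT E2 and 2.44, 1.68 and 2.12 in KO E2. In the other groups it read 0.0719, 0.0472 and 0.0188 (WT intact), 0.0316, 0.0409 and 0.0704 (KO intact), 0.12, 0.13 and 0.0741 (WT ovx), and 0.0389, 0.153 and 0.0728 (KO ovx). Every KO E2 library was well above every other, with a difference of 1.15 ± 0.12 under E2 (adjusted p = 0.000199).

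The 3 phagocyte oxidase genes were all higher in KO E2. Their ratios of mean FPKM in KO E2 to WT E2 ran from 6.89 to 7.5, all above that of Ptprc, but their order differed between libraries. Cybb was 4.32, 3.06 and 13.3 times the WT E2 mean in KO E2 replicates 1, 2 and 3, Ncf4 11.5, 3.01 and 8.01 times and Ncf1 8.32, 4.14 and 9.61 times. Ptprc was 3.97 times its WT E2 mean in KO E2 replicate 2, above Cybb and Ncf4 there, so the order by group means did not hold in each library. Cybb, the membrane catalytic subunit, read 1.26, 5.14 and 4.35 FPKM in WT E2 and 15.5, 11 and 47.6 in KO E2. It read 1.72, 1.28 and 0.0631 in WT intact, 0.532, 0.429 and 0.499 in KO intact, 0.553, 0.659 and 0.367 in WT ovx, and 0.345, 0.382 and 0.343 in KO ovx. Its KO E2 libraries lay above all others, and replicate 3 was about 3 times as high as the next. The log2 difference was 2.34 ± 0.46 (adjusted p = 0.00575). Ncf1, a cytosolic organiser of the oxidase, read 1.18, 2.98 and 2.77 FPKM in WT E2 and 19.3, 9.59 and 22.2 in KO E2. Its other values were 0.818, 0.685 and 0.0267 in WT intact, 0.544, 0.686 and 0.668 in KO intact, 0.465, 0.543 and 0.345 in WT ovx, and 0.476, 0.429 and 0.32 in KO ovx. All 12 of these were below 1 FPKM, and the log2 difference under E2 was 2.42 ± 0.28 (adjusted p = 0.000295). Ncf4, a second cytosolic subunit, differed by 2.30 ± 0.30 (adjusted p = 0.000489). Cyba, a non-member that encodes the membrane partner of CYBB and is also expressed outside phagocytes, differed by 0.03 ± 0.33 (adjusted p = 0.979); it was named here after its values were seen.

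The kinases parted. Fgr, a Src-family kinase of mature myeloid cells, read 0.557, 1.21 and 1.29 FPKM in WT E2 and 5.98, 3.64 and 7.86 in KO E2. It read 0.585, 0.37 and 0.452 in WT intact, 0.529, 0.48 and 0.555 in KO intact, 0.472, 0.599 and 0.544 in WT ovx, and 0.407, 0.431 and 0.371 in KO ovx. The KO E2 values stood clear of all others, by 1.73 ± 0.20 against WT E2 (adjusted p = 0.000291). Lyn, a kinase with activating and inhibitory roles that is also expressed in B cells and in some epithelia, read 11.9, 12.1 and 18.8 FPKM in WT E2 and 10.9, 12 and 14.4 in KO E2. It read 3.95, 6.73 and 13.2 in WT intact, 3.13, 3.75 and 3.35 in KO intact, 1.23, 1.5 and 1.59 in WT ovx, and 1.5, 1.22 and 2.94 in KO ovx. The E2 groups overlapped, with a difference of -0.16 ± 0.31 (adjusted p = 0.82), and WT intact replicate 4, the library with the highest Epcam, was the highest without E2.

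The pattern receptors were the least uniform group, with 1 of 5 tested members called. Cd14, the lipopolysaccharide co-receptor and the member with the highest mean over the libraries, read 134.7, 341 and 561.1 FPKM in WT E2 and 385, 329.8 and 119.2 in KO E2. It read 22.4, 28.9 and 52 in WT intact, 8.58, 22.1 and 19.3 in KO intact, 5.66, 4.89 and 6.39 in WT ovx, and 8.6, 5.85 and 22.8 in KO ovx. The E2 groups overlapped fully, with a difference of -0.26 ± 0.58 (adjusted p = 0.855). KO E2 replicate 3, the highest library for 22 members, had the lowest Cd14 of the 6 E2 libraries. Tlr4, which receives lipopolysaccharide from CD14, ran from 1.66 to 4.98 FPKM over all 18 libraries and differed by -0.02 ± 0.23 (adjusted p = 0.973). Tlr2, the lipoprotein receptor, read 20 to 35.3 FPKM in KO E2 and 6.76 to 16.8 in WT E2 without overlap but missed the threshold (1.08 ± 0.33, adjusted p = 0.0527). The scavenger receptor Msr1 was higher by 2.21 ± 0.37 (adjusted p = 0.00244), with 11, 2.24 and 12.4 FPKM in KO E2 and 0.298 to 1.15 in WT E2. The mannose receptor Mrc1 read 0.531 to 1 FPKM in WT E2 and 0.943 to 6.08 in KO E2 and did not pass (0.96 ± 0.35, adjusted p = 0.11). Marco, a scavenger receptor, was at or under 0.0982 FPKM in the 15 other libraries and read 2.1, 0.0292 and 16.9 FPKM in KO E2, so its level came from replicates 1 and 3 alone.

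Of 6 regulators of leukocyte actin and small GTPases, 4 were higher in KO E2. Laptm5, a lysosomal membrane protein of blood cells that was listed with them, was higher too and read 46.7, 63.1 and 37.1 FPKM in WT E2 and 183.4, 123.5 and 254.2 in KO E2, a difference of 1.88 ± 0.36 (adjusted p = 0.0051). Its KO E2 libraries did not overlap those of WT E2. Coro1a and Lcp1, which bind leukocyte actin, differed by 2.33 ± 0.40 and 1.78 ± 0.38. Arhgap9, a GTPase-activating protein, read 1.01, 1.69 and 1.17 FPKM in WT E2 and 6.35, 3.9 and 5.43 in KO E2 (1.43 ± 0.17, adjusted p = 0.000295). In the other groups Arhgap9 ran from 0.266 to 0.744 FPKM, so its KO E2 libraries again stood alone. The remaining pair missed the threshold. Cyth4, an exchange factor for ARF GTPases, read 10.5, 11.4 and 14.2 FPKM in WT E2 and 14.5, 15.3 and 21.1 in KO E2, close together but without overlap (0.46 ± 0.21, adjusted p = 0.217). Aif1, the calcium-binding IBA1 used to stain macrophages, read 3.73, 8.32 and 3.93 FPKM in WT E2 and 4.31, 10.7 and 16.7 in KO E2, which overlapped (0.78 ± 0.38, adjusted p = 0.25).

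Hmha1, a GTPase-activating protein of blood cells, was the one member called lower in WT E2 than in WT ovx. It read 3.3, 2.92 and 3.17 FPKM in WT ovx, 1.15, 1.8 and 0.67 in KO ovx, 1.05, 2.85 and 1.08 in WT E2 and 11.6, 8.58 and 9.86 in KO E2. In the intact state it read 0.648, 0.792 and 0.142 in WT and 0.465, 0.365 and 0.351 in KO. WT ovx was therefore above WT intact, KO ovx and WT E2 without overlap, while KO E2 was above every other library. Parts of this course were shared. WT ovx also lay above KO ovx and, narrowly, WT E2 for Mrc1, and above WT intact for Coro1a. The differences were 2.10 ± 0.24 for KO against WT under E2 (adjusted p = 0.000295), -0.94 ± 0.24 for KO against WT in ovx (adjusted p = 0.039) and -0.70 ± 0.24 for E2 against ovx in WT (adjusted p = 0.028). With a pseudocount of 0.1, the last 2 did not pass.

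The inflammasome gene Mefv, which encodes pyrin, read 0.162, 0.334 and 0.33 FPKM in WT E2 and 3.86, 1.59 and 2.94 in KO E2. It was at most 0.0775 FPKM in the 12 libraries without E2, of which WT intact replicate 4 and KO intact replicate 1 were listed at 0. The KO E2 libraries were all above the others, and only through them did Mefv reach the level for testing (1.53 ± 0.17, adjusted p = 0.000291). Under its older symbol Sfpi1, Spi1 read 2.17, 6.77 and 4.1 FPKM in WT E2 and 32.6, 10.9 and 34.1 in KO E2 (2.27 ± 0.37, adjusted p = 0.00201). Pirb encodes an inhibitory receptor, and its row Lilrb3 read 1.37, 2.92 and 2.6 FPKM in WT E2 and 19.4, 9.51 and 31.9 in KO E2 (2.57 ± 0.32, adjusted p = 0.000349). The similar activating genes Pira1 and Pira2 read nearly the same as each other in every library, 5.18 to 23.6 and 5.15 to 23.5 FPKM in KO E2, so reads may be shared within this family.

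Among the other surface and phagosome proteins, 3 of 5 were higher in KO E2. Mpeg1, a perforin-like protein of the phagosome, read 2.93, 11.1 and 11 FPKM in WT E2 and 39.3, 22.9 and 68.1 in KO E2 (2.29 ± 0.57, adjusted p = 0.0224). It read 6.99, 4.67 and 0.278 in WT intact, 1.78, 1.9 and 1.94 in KO intact, 2.36, 2.49 and 1.22 in WT ovx and 1.48, 1.33 and 1.17 in KO ovx. The E2 groups did not overlap, and in WT intact replicate 4 was far below the other 2. P2ry6, a receptor for UDP, read 2.23, 4.74 and 5.39 FPKM in WT E2 and 10.2, 8.62 and 16.3 in KO E2 (1.32 ± 0.24, adjusted p = 0.00396). Cd86, the T-cell costimulatory ligand, rose from 0.356 to 1.26 FPKM in WT E2 to 1.88 to 3.31 in KO E2 (1.04 ± 0.19, adjusted p = 0.00345). Cd68, an endolysosomal glycoprotein, read 9.79 to 11.6 and 12.7 to 40.9 FPKM (1.13 ± 0.49, adjusted p = 0.181), and Ms4a7, a membrane protein of mature macrophages, 3.15 to 7.89 and 7.39 to 36.2 FPKM (1.37 ± 0.48, adjusted p = 0.0965).

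**Figure D2:**
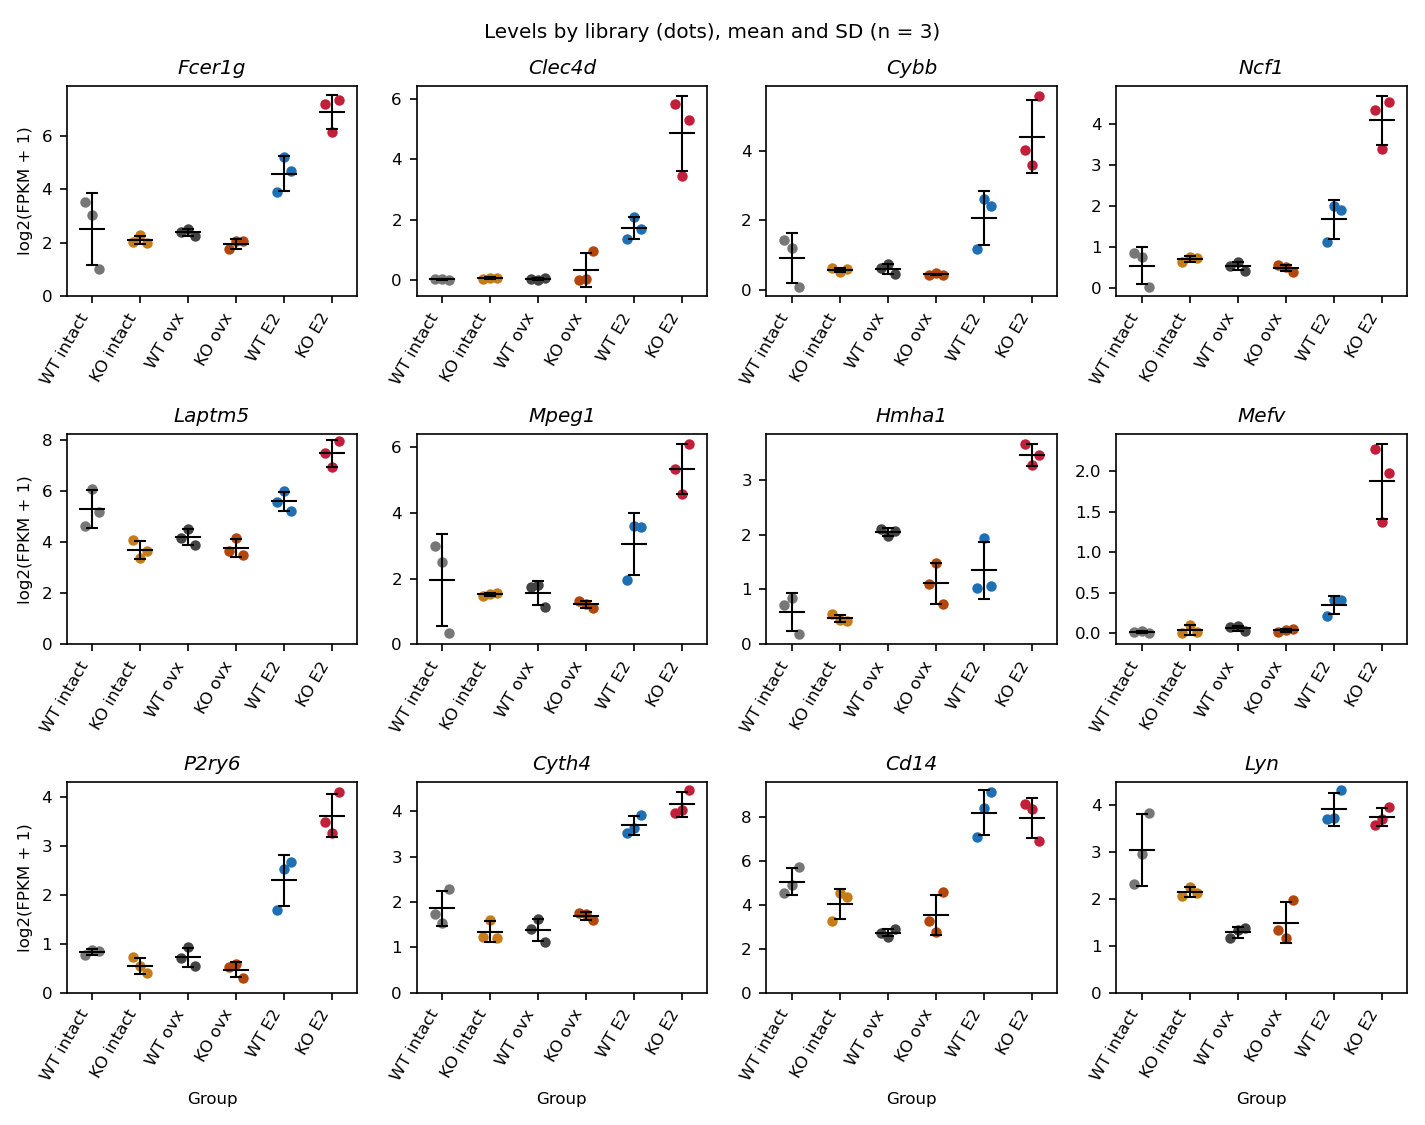
log2(FPKM + 1) of 12 members in the 6 groups; dots are libraries in the order of their numbers, lines the mean and bars the SD (n = 3). In 10 panels the 3 KO E2 dots stand above all others, by little for Cyth4, while Cd14 and Lyn overlap with WT E2.

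The size of the KO excess differed between the KO E2 libraries. Replicate 2 was the lowest KO E2 library for 26 of 34 members, with a median ratio to the mean WT E2 level of 2.82, against 4.75 for replicate 1 and 5.9 for replicate 3. Replicate 2 lay above all 3 WT E2 libraries for 28 members. The shares of all genes behind the counts of 26 and 28 were not computed, so both are a description only. In replicate 2, Mefv was 5.77 times and Hmha1 5.17 times the WT E2 mean, while Cd68 was 1.16 times and Mrc1 1.2 times it. Clec4d ranged from 4.16 times in replicate 2 to 23.4 times in replicate 1, and Msr1 from 2.89 to 16 times.

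**Figure D3:**
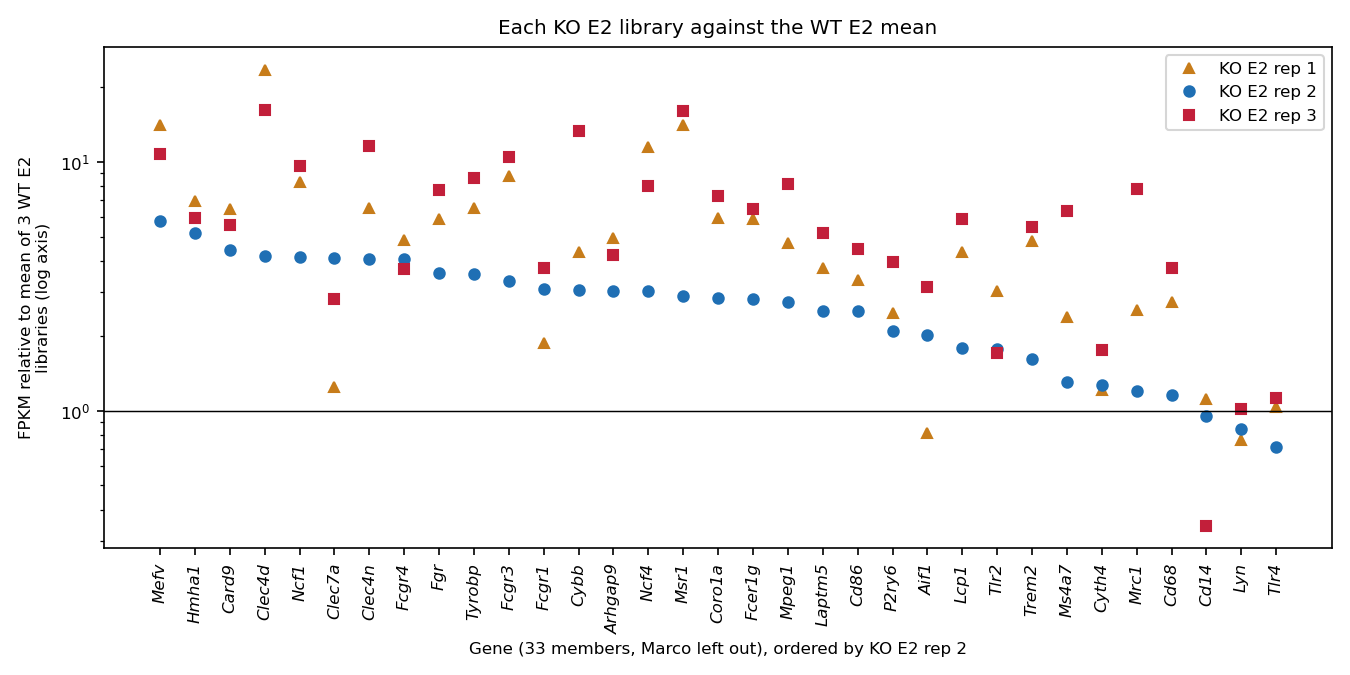
FPKM of each of the 3 KO E2 libraries divided by the mean of the 3 WT E2 libraries, on a log axis, for 33 members ordered by replicate 2; the line marks equality. Marco is left out. Replicate 2 is mostly lowest (median 2.83 over the 33) but above the line except for Cd14, Lyn and Tlr4, where it is below.

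Markers of other cells moved in the same libraries. Of 14 neutrophil genes, 10 were higher in KO E2 than in WT E2 and none was lower. The summed neutrophil level was 3851, 4179 and 5634 FPKM in WT E2 and 16060, 4939 and 1614 in KO E2. Lcn2, which epithelium also expresses, made up most of the WT E2 sums (3663, 3679 and 4904 FPKM) and read 637, 3063 and 144 FPKM in KO E2. The other 13 genes summed to 188, 500 and 730 FPKM in WT E2 and 15426, 1876 and 1470 in KO E2, so that without Lcn2 every KO E2 library lay above every WT E2 library. S100a8, a neutrophil calcium-binding protein, read 29.4, 98.1 and 218.2 FPKM in WT E2 and 7663, 708.3 and 628.7 in KO E2, without overlap, but did not pass (4.11 ± 1.28, adjusted p = 0.0594). Ly6g did not pass either (-0.24 ± 0.61, adjusted p = 0.873). Its row did not follow S100a8: it read 202.1 FPKM in WT intact replicate 4, where S100a8 was listed at 0, and 12.2 to 23.4 in the ovx libraries. Ly6g gave 113.9, 243.4 and 157.6 FPKM of the WT E2 sums without Lcn2, and 68.9, 405.1 and 94.8 of those in KO E2. Which cells gave the Ly6g reads was not tested. Of 11 pan-leukocyte genes, 10 were higher in KO E2, with summed levels of 21.8 to 86.6 FPKM in WT E2 and 141 to 290 in KO E2. Of 8 tested T, B and NK cell genes, 3 were higher, Cd3d, Cd3e and Cd3g, with sums of 4.11 to 16.8 and 16.3 to 81 FPKM.
Dendritic cell genes had 1 of 4 higher, eosinophil and mast cell genes 1 of 6, and Epx and Ms4a2 of the latter list were under 0.1 FPKM in all libraries. Of 11 epithelial genes 3 were lower (Cdh1, Cldn3 and Esrp1), with sums of 299 and 350 FPKM in KO E2 replicates 1 and 3 against 2370 in replicate 2 and 897 to 2806 in WT E2. Ltf alone gave 2103 FPKM in WT E2 replicate 2, 1665 in KO E2 replicate 2 and 192 in KO E2 replicate 1, and was listed at 0 in WT E2 replicates 1 and 5. Without Ltf the epithelial sums were 897, 703 and 1169 FPKM in WT E2 and 107, 705 and 320 in KO E2; Lcn2 and Ltf were singled out after their values were seen. The adipocyte list had sums of 439.5, 4.93 and 2403 FPKM in the KO E2 libraries and at most 47.5 in WT E2, and its gene Cfd, singled out after its values were seen, read 257, 0.104 and 1212 FPKM. Lists of erythrocyte, adipocyte, stromal, smooth muscle and endothelial genes had no gene past the threshold. Stromal sums were 1038, 199 and 934 FPKM in KO E2 and 149 to 213 in WT E2. The part of these cells in the member differences was not tested.

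**Figure D4:**
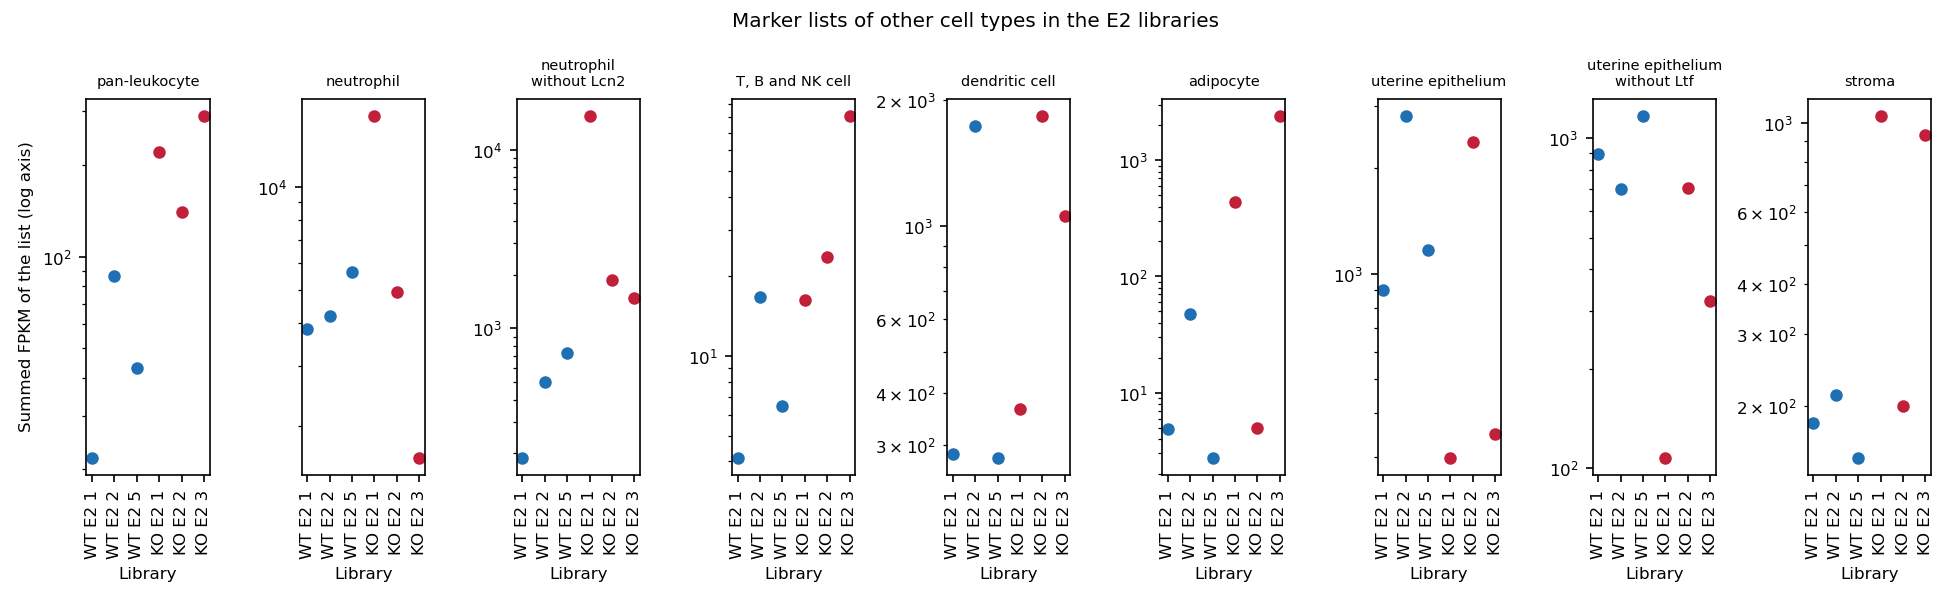
Summed FPKM of 7 marker lists, 2 of them also without their leading gene (Lcn2 or Ltf), in the 3 WT E2 (blue) and 3 KO E2 (red) libraries, each on its own log axis. Pan-leukocyte sums are higher in all 3 KO E2 libraries; so are neutrophil sums without Lcn2, while with Lcn2 replicate 3 lies lowest. The epithelial sums of KO E2 replicates 1 and 3 lie below those of WT E2 with or without Ltf.

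The 4 libraries in which Cfd exceeded 10 FPKM were left out (KO ovx replicate 4, WT E2 replicate 2, KO E2 replicates 1 and 3). That choice was made after the data were seen. KO E2 was then left with replicate 2 alone, so no test is read from that fit. All 23 members kept a positive difference from WT E2, from 0.89 for Trem2 to 2.55. The difference of Clec4d was then 1.91 in place of 3.13, and that of Msr1 1.05 in place of 2.21. Step set 3 holds 1 KO E2 and 1 WT E2 library. In that fit the spread came from the intact and ovx libraries of all sets, so no test is read from it. The 23 differences there were all positive, from 1.10 to 3.61. With the E2 libraries limited to step set 4, 2 against 2, 15 passed, and Cd86, Fcer1g, Tyrobp, Trem2, Laptm5, Mpeg1, Lcp1 and Coro1a did not. The intact and ovx libraries of all sets entered the spread of this fit too. The 15 include Fcgr1, Msr1, Clec4n, Fgr, Card9 and Mefv, which were tested only through the KO E2 libraries, so their passing is no separate support. All 23 differences were positive in step set 4 too. When each E2 library was left out in turn, 18 of 23 always passed, among them all 7 members tested only through the KO E2 libraries. Fcer1g, Mpeg1, Tyrobp and Trem2 were lost without WT E2 replicate 1, KO E2 replicate 1 or KO E2 replicate 3. Tyrobp and Trem2 were also lost without WT E2 replicate 5, and Lcp1 without WT E2 replicate 1. The adjusted p in limma rose to 0.0644 for Fcer1g, 0.11 for Mpeg1, 0.0776 for Tyrobp, 0.0947 for Trem2 and 0.0563 for Lcp1.

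A list of 55 other macrophage and myeloid genes was read beside the members, 48 of them tested. In KO E2 against WT E2, 31 were higher and 1 was lower, with a median log2 difference of 1.50. The largest were Clec4e (2.84 ± 0.44), a lectin that pairs with CLEC4D, Fcgr2b (2.68 ± 0.44), Itgb2 (2.64 ± 0.40), the common chain of leukocyte integrins, and Csf2rb (2.59 ± 0.33), the signaling chain of the GM-CSF receptor. The one lower gene was Naip5, an intracellular sensor of flagellin (-1.75 ± 0.36, adjusted p = 0.008). Csf1r, the receptor that keeps macrophages alive, read 3.22, 8.23 and 6.54 FPKM in WT E2 and 28.7, 16.3 and 57.3 in KO E2 (2.22 ± 0.45, adjusted p = 0.00729). Emr1 (F4/80) read 1.35, 2.53 and 3.8 in WT E2 and 6.97, 3.37 and 30.2 in KO E2, which overlapped, and did not pass (1.59 ± 0.51, adjusted p = 0.0667). Itgam (CD11b) read 26.4, 15.6 and 33 FPKM in WT E2 and 17.9, 17.5 and 20.6 in KO E2 (-0.35 ± 0.67, adjusted p = 0.825). The Itgam row did not follow Csf1r or Ptprc in WT intact replicate 4, where it read 26.3 FPKM beside 0.137 and 0.0633. Which cells gave the Itgam reads was not tested. Of 8 tested genes of resident-type macrophages, F13a1 and Stab1 were higher and Cbr2 was lower. Cbr2 made up 96.8%, 92.5% and 96.6% of the summed FPKM of that list in WT E2 replicates 1, 2 and 5. In KO E2 replicates 1, 2 and 3 it made up 13.9%, 87.4% and 23.3%. In WT, Cbr2 was also higher under E2 than in ovx (5.21 ± 0.81). Which cells gave the Cbr2 reads was not tested.

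Estradiol itself was compared with ovx within each genotype. In WT, 28 of 33 members were higher under E2 and 1, Hmha1, was lower. This stood against 32.3% of all genes tested called higher, 15.2% called lower and 47.5% called either way. The medians were 1.41 over the members and 0.24 over all genes. WT E2 lay above WT ovx without overlap for 30 members and below it for 2, beside 43.5% and 23.3% of all genes tested. The largest differences were Cd14 (5.49 ± 0.58), Lyn (2.62 ± 0.31), Cyth4 (2.32 ± 0.21), Tlr2 (2.21 ± 0.33), Fcer1g (2.20 ± 0.50), Ms4a7 (2.07 ± 0.48), Cd68 (2.07 ± 0.49) and Trem2 (1.86 ± 0.40). The other 20 higher members ran down to 0.31 for Card9. Cyth4, with the smallest adjusted p (1.45e-05), read 1.63, 2.07 and 1.18 FPKM in WT ovx and 10.5, 11.4 and 14.2 in WT E2. In KO it read 2.36, 2.3 and 2.03 in ovx, and in the intact state 2.34, 1.91 and 3.88 in WT and 1.33, 2.04 and 1.29 in KO. Every E2 library of Cyth4 was above every library without E2. Mefv, Fgr, Msr1 and Mrc1 were not called in WT, at 0.29 ± 0.17, 0.37 ± 0.20, 0.64 ± 0.37 and -0.33 ± 0.35.
Ptprc did not pass in WT (0.39 ± 0.28, adjusted p = 0.263), and 4 of 11 pan-leukocyte genes were higher. Epithelial genes were higher for 8 of 11, with Epcam at 93, 95.4 and 163 FPKM in WT E2 and 9.38 to 13.3 in WT ovx, and stromal genes were lower for 5 of 10. The part of this change of tissue in the member differences was not tested. Leaving out each library in turn, 17 of the 29 calls always held. Tyrobp, Clec7a, Mpeg1, Card9 and Coro1a were lost without any library but WT E2 replicate 1, and Hmha1 without any but WT E2 replicate 2. Tlr4 was lost without any WT ovx library or WT E2 replicate 5, and Cd86 without WT ovx replicates 2 or 3 or WT E2 replicate 2. Fcgr3, Cybb, Clec4n and Arhgap9 were lost without WT E2 replicate 2, Fcgr3 also without WT ovx replicate 3 and Cybb without WT E2 replicate 5. The count was lowest, 19, without WT E2 replicate 2.

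In KO, 32 of 33 members were higher under E2 than in ovx, against 15.9% of all genes tested called higher and 27.1% either way. The exception was Tlr4, at 0.02 ± 0.23 (adjusted p = 0.962). The 3 KO E2 libraries lay above KO ovx without overlap for 32 members, beside 20.4% of all genes tested. The median log2 difference was 3.15 over the members and 0.07 over all genes, and the median ratio of mean FPKM was 30.5, beside 6 in WT. The largest were Fcer1g (4.93 ± 0.50), Tyrobp (4.54 ± 0.60), Fcgr3 (4.53 ± 0.43), Clec4d (4.51 ± 0.43), Cd14 (4.42 ± 0.58), Mpeg1 (4.13 ± 0.57), Clec4n (3.99 ± 0.41) and Cybb (3.97 ± 0.46), and the other 24 ran from 1.30 for Mrc1 to 3.76 for Coro1a. P2ry6, one of the smallest adjusted p (2.15e-06), read 0.438, 0.506 and 0.223 FPKM in KO ovx and 10.2, 8.62 and 16.3 in KO E2. Its other values without E2 were 0.629, 0.901 and 0.451 in WT ovx, 0.697, 0.843 and 0.817 in WT intact and 0.647, 0.449 and 0.313 in KO intact, all under 1 FPKM. Arhgap9 (2.16 ± 0.17, adjusted p = 2.15e-06) read 0.37, 0.485 and 0.266 in KO ovx. All 32 calls held when any of the 6 libraries was left out. Of the other myeloid genes, 46 of 48 were higher, led by Ctss (4.91 ± 0.44), C1qb (4.52 ± 0.64), C1qa (4.35 ± 0.57) and Fcgr2b (4.10 ± 0.44), where WT had 24 of 48, led by Itgam (4.15 ± 0.67), Cyba (2.96 ± 0.33), Naip5 (2.96 ± 0.36) and Ctss (2.68 ± 0.44). All 11 pan-leukocyte genes and all 14 neutrophil genes were higher in KO, Ptprc by 2.67 ± 0.28 (adjusted p = 1.1e-05).

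**Figure D5:**
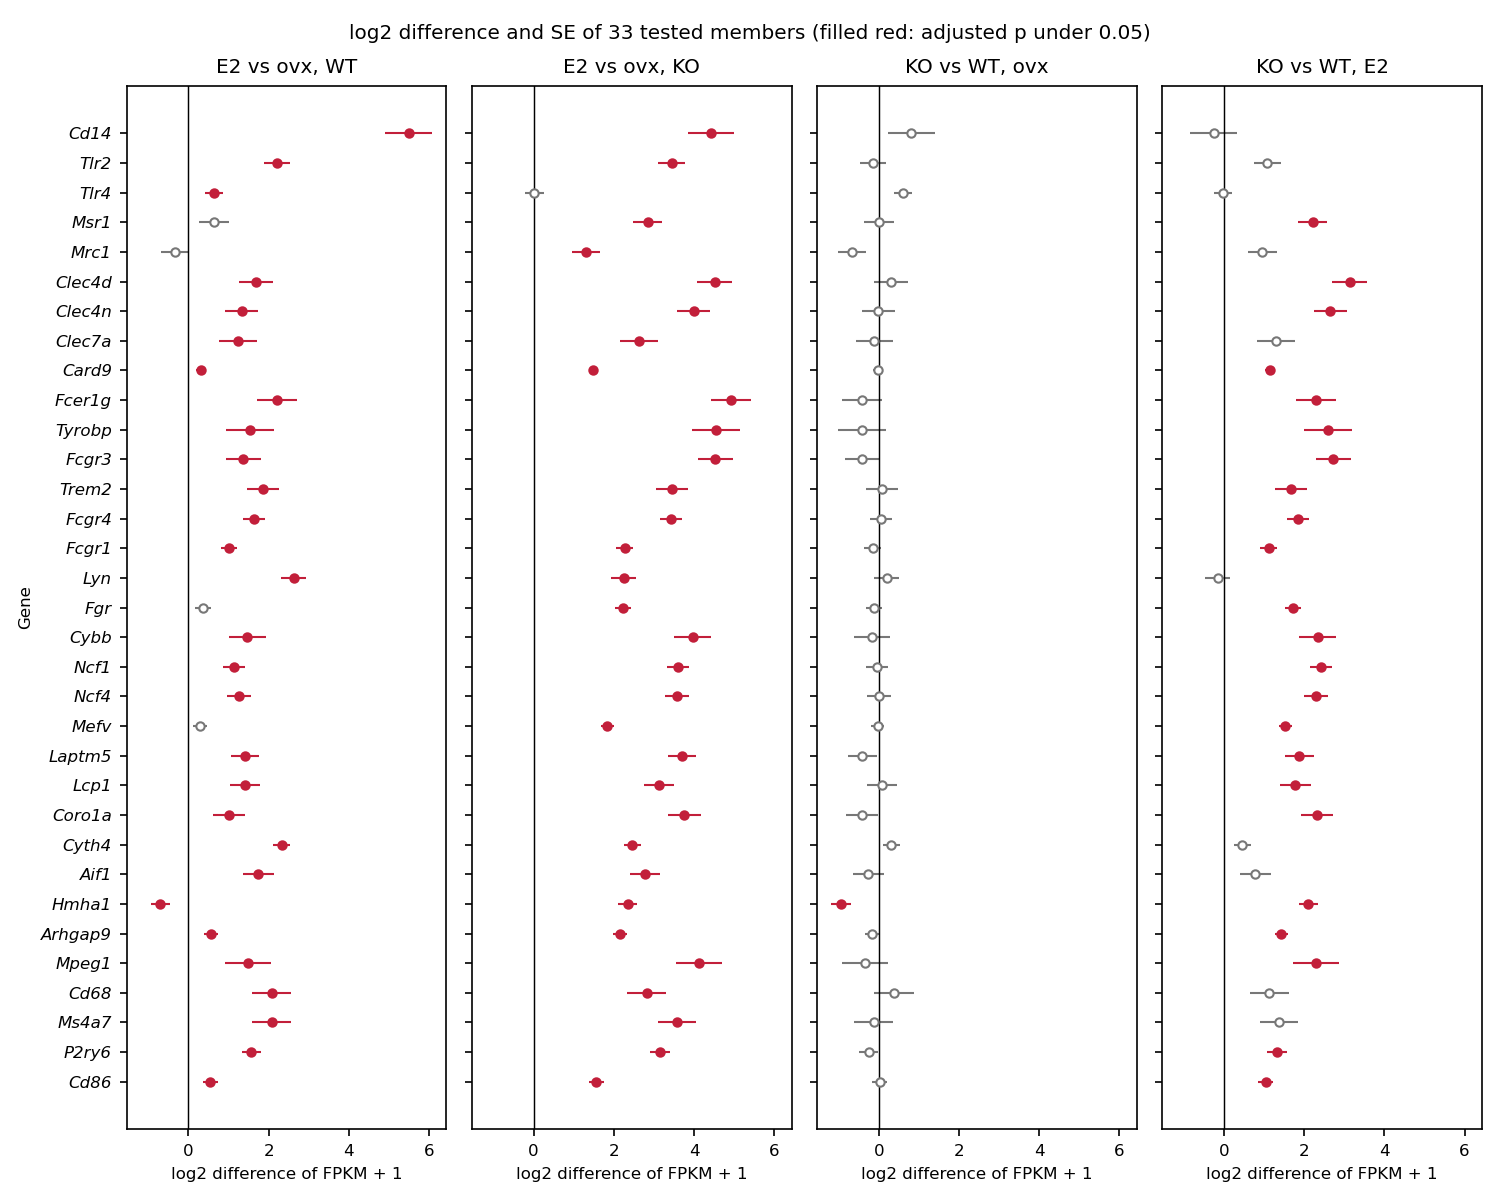
log2 differences of FPKM + 1 (points) with SE (bars) for the 33 tested members in 4 comparisons; filled red points passed the threshold and open grey ones did not. In E2 against ovx, 28 members are higher in WT and 32 in KO; KO against WT in ovx has 1 filled point, Hmha1, and under E2 it has 23, up to 3.13 for Clec4d.

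The difference between the genotypes in the response to E2 was tested directly as an interaction. It was positive and past the threshold for 22 of 33 members and negative for none, where 4.05% of all genes tested passed with a positive difference, 6.95% with a negative one and 11.0% either way. The median was 1.63 over the members and -0.14 over all genes. The largest were Fcgr3 (3.16 ± 0.61), Hmha1 (3.04 ± 0.34), Tyrobp (3.01 ± 0.85), Clec4d (2.83 ± 0.61), Coro1a (2.75 ± 0.56), Fcer1g (2.73 ± 0.71), Clec4n (2.66 ± 0.58) and Mpeg1 (2.64 ± 0.81), and the other 14 ran from 1.03 for Cd86 to 2.50 for Cybb. Mrc1, which did not pass in KO against WT under E2, did so here (1.63 ± 0.50, adjusted p = 0.0484), with 1.14, 1.56 and 1 FPKM in WT ovx and 0.442, 0.419 and 0.346 in KO ovx. Cyth4, Lyn and Cd14 differed in their response by 0.15 ± 0.30, -0.36 ± 0.44 and -1.07 ± 0.82, none past the threshold. Among the other myeloid genes 26 were positive and Naip5 was negative (-1.85 ± 0.51). Of the 22, 15 passed with each of the 12 libraries left out, and Mrc1 was lost without 11 of them (all but KO E2 replicate 2), Mpeg1 without 10 (all but WT E2 replicate 2 and KO E2 replicate 2), Tyrobp without 9 and Fcer1g without 8. Cd86, Cybb and Msr1 were lost without WT ovx replicate 1 or WT E2 replicate 1, Cd86 and Cybb also without WT ovx replicate 2 or KO ovx replicate 4, Cd86 and Msr1 without KO E2 replicate 1, and Cd86 without WT E2 replicate 5.

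Averaged over the 3 hormone states, 9 members were higher in KO and none lower, where 4.17% of all genes tested were called higher, 1.73% lower and 5.90% either way. They were Clec4d (1.16 ± 0.25), Clec4n (0.92 ± 0.24), Ncf1 (0.84 ± 0.16), Ncf4 (0.75 ± 0.17), Fcgr4 (0.59 ± 0.16), Fgr (0.55 ± 0.11), Mefv (0.51 ± 0.10) and Card9 (0.38 ± 0.07), with Arhgap9 at 0.37. In the intact and ovx states taken alone, none of these 9 passed, and their differences there ran from -0.17 to 0.30. With a pseudocount of 0.1 in place of 1, 2 members were called. Fcgr4 and Clec4n were each lost without any of 13 of the 18 libraries and Arhgap9 without any of 12.

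Without E2 few of these genes were called between the genotypes. In the intact state 1 member was called, Laptm5, lower in KO (-1.59 ± 0.36, adjusted p = 0.0379), where 0.993% of all genes tested were called lower, 1.19% higher and 2.18% either way. It read 23.9, 67.4 and 35.1 FPKM in WT and 15.9, 9.38 and 11.8 in KO, without overlap, but the call was lost when any of 5 of the 6 libraries was left out (adjusted p up to 0.17), all but WT intact replicate 1. The members' median was -0.15 and that of all genes -0.04. KO intact lay below WT intact without overlap for 5 members and above it for 0, beside 12.5% and 10.3% of all genes tested. WT intact replicate 4 was below both other WT intact libraries for 22 members and above both for 7, namely Cd68, Cd14, Lyn, Arhgap9, Tlr2, Tlr4 and Cyth4. Tyrobp, for example, read 9.24, 7.07 and 0.256 FPKM in WT intact replicates 1, 2 and 4, and Cd68 3.42, 6.87 and 21.3. Of the other myeloid genes, Naip5 (-2.67 ± 0.36), Pycard (-1.23 ± 0.30) and Csf2ra (-0.77 ± 0.16) were lower in KO.

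In ovx the single call was Hmha1, lower in KO, beside 0.791% of all genes tested called lower and 5.42% either way, and it was lost without any of 5 of the 6 libraries, all but KO ovx replicate 2 (adjusted p up to 0.168). The medians were -0.11 over the members and 0.09 over all genes. KO ovx lay below WT ovx without overlap for 6 members and above it for 1, Tlr4, beside 13.4% and 26.8% of all genes tested. Laptm5 read 17.2, 22.1 and 13.9 FPKM in WT ovx and 11.7, 17.2 and 10.5 in KO ovx, which overlapped. Pycard was the one other myeloid gene called, higher in KO (1.20 ± 0.30).

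Intact and ovx libraries never shared a step set, so the presence of ovaries cannot be told apart from the sets. In WT, 5 members were higher with ovaries, namely Cd14 (2.33 ± 0.58), Lyn (1.75 ± 0.31), Cd68 (1.69 ± 0.49), Laptm5 (1.10 ± 0.36) and Lcp1 (0.98 ± 0.38), and Hmha1 was lower (-1.46 ± 0.24), while 29.9% of all genes tested were called higher, 15.4% lower and 45.3% either way. Cd68 was lost without WT intact replicate 4 (adjusted p = 0.0633), Laptm5 without WT intact replicate 2 or WT ovx replicates 1 or 3, and Lcp1 without any one of the 6 libraries. In KO, Lcp1 alone was higher (1.17 ± 0.38, adjusted p = 0.0482), where 7.14% of all genes tested were called higher, 8.74% lower and 15.9% either way, and it was lost without any of 5 libraries, all but KO ovx replicate 4. The members' medians were 0.11 in WT and 0.08 in KO, beside 0.21 and 0.09 over all genes. Whether genotype changed the effect of the ovaries was tested as a second interaction, in which limma called no member. Of all genes tested, 1.02% passed with a positive difference, 3.60% with a negative one and 4.63% either way.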

How the data were processed

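RNA of 18 mouse uterine cross sections was sequenced as stranded single-end TruSeq libraries, per the labels' protocols. The deposited table holds FPKM values that the authors computed with Cufflinks 2.0.2 and Cuffdiff, per the submitters' processing notes; the sources used here do not give the aligner, genome build or annotation. Without read counts no counting interval can be had.

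Genes with at least 1 FPKM in at least 3 libraries were tested. log2(FPKM + 1) was fitted over all 18 libraries with a mean for each of the 6 groups with limma 3.58.1 in R 4.3.3 (eBayes with a trend, two-sided), with Benjamini-Hochberg adjustment over all 13898 genes within each of 10 comparisons and a threshold of 0.05. The script was tested on simulated data. Alternatives were a pseudocount of 0.1, no filter, median-ratio scaling, a replicate block, step sets as a term, and leaving out each library. In the fits within a step set, only the groups compared were limited to that set. The other groups kept all their libraries and entered the spread. Step sets came from clustering libraries on shared ratios of values up to 0.05 FPKM within 0.02 log2, cut at a fixed number of 4 sets. Replicate numbers were not taken as pairing the samples.

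Members, role groups and marker lists were chosen with earlier results of these data known. In each comparison the members past the threshold were named, up to 8 each way by size, the rest by count and range. Values for every library were given for the member with the highest mean in each role group and for up to 3 members each way with the smallest adjusted p. Promoter windows came from RefSeq tables on GRCm38.p6, read in Python 3.11.15.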

Additional observations from a re-analysis of the deposited data

Results flagged for a closer look

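The response to E2 differed between KO and WT, by the interaction test in limma, for 22 members, all with a larger response in KO. On the log2 scale of FPKM + 1 the differences were 1.25 for Fcgr1, 3.16 for Fcgr3, 1.80 for Fcgr4, 2.73 for Fcer1g and 3.01 for Tyrobp among the Fc receptors and adaptors. The scavenger and mannose receptors Msr1 and Mrc1 differed by 2.20 and 1.63, the lectins Clec4d and Clec4n by 2.83 and 2.66, and Card9 by 1.18. The oxidase genes Ncf1, Ncf4 and Cybb differed by 2.46, 2.30 and 2.50, the kinase Fgr by 1.86 and the inflammasome gene Mefv by 1.55. Laptm5, Arhgap9, Hmha1 and Coro1a differed by 2.30, 1.60, 3.04 and 2.75, and Mpeg1, P2ry6 and Cd86 by 2.64, 1.58 and 1.03. With a pseudocount of 0.1, 14 of the 22 passed, and Cd86, Fcgr4, Fcer1g, Tyrobp, Clec4d, Clec4n, Cybb and Mpeg1 did not. With the replicate number as a block, 5 passed (Fgr, Card9, Mefv, Arhgap9 and Hmha1). With each library left out in turn, 15 always passed, all but Cd86, Fcer1g, Tyrobp, Mrc1, Msr1, Cybb and Mpeg1. Card9, Mefv, Fgr, Msr1, Clec4n, Fcgr1 and Cd86 reached the level for testing only through the KO E2 libraries.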

How the results depend on the processing

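No member call turned in direction under the settings run. Counts of members called are given here. KO against WT under E2 gave 23 calls, 15 within step set 4, and 16 to 24 under the other settings. No test is read from set 3 or without the Cfd-rich libraries, where KO E2 had 1 library. The 7 members tested only through the KO E2 libraries enter these counts. In the intact state (1 call), it gave 0 with no filter, 0 with step sets as a term and 0 within sets 1 and 2. In ovx (1 call), it gave 0 with a pseudocount of 0.1, no filter, step sets as a term, within set 3 and without the Cfd-rich libraries. The mean of states gave 9 calls and 2 with a pseudocount of 0.1, and the genotype by E2 interaction 22 and 14. Intact against ovx in KO gave 1 call, 0 with no filter and 2 without the Cfd-rich libraries. E2 against ovx in KO gave 32 in every setting with more than 1 KO E2 library. Leaving out each library gave 0 to 3 (KO against WT, intact), 0 to 1 (ovx), 18 to 27 (E2), 6 to 14 (mean of states), 19 to 29 and 32 to 32 (E2 against ovx in WT and KO), 4 to 7 and 0 to 2 (intact against ovx in WT and KO), 15 to 25 (genotype by E2) and 0 to 2 (genotype by ovaries). Where a group was left with 1 library, it was assumed to vary like the others.

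The groups compared shared only 2 replicate numbers, with correlations of deviations from -0.18 to 0.34, so the numbers were not read as pairs. With the replicate number as a block, calls of members were 2 in the intact state (neither of them Laptm5), 0 in ovx, 16 under E2, 4 in the mean of states, 19 in E2 against ovx in WT, 0 in intact against ovx in KO and 5 in the genotype by E2 interaction. Over all genes tested, the block moved the calls in KO against WT under E2 from 1180 to 384. Median-ratio scaling shifted the median of all genes by -0.14 in E2 against ovx in WT, -0.15 in intact against ovx in WT and 0.11 in the genotype by E2 interaction. The causes of these changes were not tested. Without read counts, the precision of values near 0 FPKM is unknown.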
